A study of Mus musculus
Rattus norvegicus and Rattus norvegicus and Mus musculus with 18 samples.

Results

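The transcripts of 4T1 cancer cells were compared between the necrotic core and the non-necrotic rim of the same primary tumors, over 13070 mouse genes in 10 libraries from 5 rats. 4T1 is a mouse mammary carcinoma line that spreads to the lung, and the tumors grew in the mammary fat pads of SRG rats, a strain that lacks mature T, B and natural killer cells and keeps its macrophages and neutrophils. Mouse reads are therefore taken to come from the cancer cells and rat reads from the host, and the results below concern the mouse genes. The comparison asks what distinguishes cancer cells of the dying middle from those of the living edge. Each tumor was cut open and gave a core and a rim. The 5 core and 5 rim libraries of Rat3867, Rat3869, Rat3875, Rat3876 and Rat3877 were used, out of 18 libraries of the series. All 10 carry the labels 4T1, wildtype and no treatment, and tissue was taken 27 days after the cells were placed. Tested were the genes that reached 1 CPM (reads scaled to library size, as the authors deposited them) in at least 5 of the 10 libraries, out of 17672 mouse genes in the deposited table. The age of the animals and the number of cells placed are not given in the labels. The tumors come from a single cell line, so the 5 rats repeat the host and the tumor but not the cancer genotype.

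The middle of a fast-growing tumor lies far from its vessels. Cells there are known to meet low oxygen, little glucose, acid and the debris of dying neighbors. Low oxygen stabilizes the HIF transcription factors, which induce vascular growth factors, glucose uptake and collagen-modifying enzymes. Shortage of amino acids and misfolded protein act through the kinases of the integrated stress response, which raise Atf4, Atf3 and Ddit3. Carcinoma cells at the edge of a tumor are known for proliferation and for basal traits such as keratin 14, laminins and matrix proteases that open a path into the surrounding tissue. The lists below follow these and other programs. They were chosen with earlier results of these data known, so counts of called members describe the lists and do not test them.

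The 10 libraries held 17579200 to 23803568 reads on mouse genes and 3146720 to 9183248 on rat genes. Mouse reads made up 83.8 to 87.4% of assigned reads in the cores and 65.7 to 81.3% in the rims, with the rim of Rat3876 lowest. Markers of the epithelial 4T1 cells were present in every library: all 10 genes of that list were tested, 0 were higher and 6 lower in the core, and their summed level was 2898 to 4491 CPM in the cores and 4622 to 6397 CPM in the rims. Mouse markers of neutrophils, lymphocytes and adipocytes summed to at most 2.37 CPM in any library, and none of these genes was tested. Of 12 macrophage markers, 2 were tested and 1 was higher in the core, 5 stood under 1 CPM on average and 5 were not in the table, among them Adgre1 and Csf1r (summed level 17.1 to 37.4 CPM in the cores, 14.7 to 19.6 in the rims). Endothelial markers summed to 79.6 to 126 CPM in the cores and 99.8 to 144 in the rims (0 of 3 tested called), skeletal muscle markers to 22.1 to 45.9 and 47.4 to 89.3 (0 higher and 2 lower of 4), and erythroid markers to at most 2.63 (0 of 1). Some rims stood apart: chromosome 16 genes were high in the rim of Rat3876, and most of the X chromosome and several keratins were low in the rim of Rat3877, with values given below. Without these rats together, 1832 genes were called, 929 higher and 903 lower. Because the tissue is bulk, fewer cells of a kind and less RNA per cell cannot be told apart.

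Of the 13070 genes, 2585 differed between core and rim at a limma adjusted p under 0.05, with the rat as a pairing term. That is 19.8% of the genes tested: 1326 genes were higher in the core (10.1%) and 1259 lower (9.63%). At least 2-fold differences were seen in 472 of the higher and 355 of the lower genes, together 6.33% of all genes tested. Large changes were more often rises: 155 genes rose and 53 fell by at least 4-fold, and 50 rose and 13 fell by at least 8-fold. The median log2 difference over all genes was 0.01. The counts of each gene list below are to be read against these shares. In the 5 rats, 96.8 to 99.5% of the called genes kept the direction of the mean, and Rat3876 had the smallest differences (median absolute log2 difference 0.26, against 0.32 to 0.35 in the others). Of the called genes, 1560 had 5 cores that did not overlap the 5 rims. Over all 13070 genes tested, called or not, the 5 cores lay above the 5 rims in 926 and below them in 948. Most genes named below were chosen by their call and a shared sign in 5 rats. Lack of overlap among these genes is therefore a description and not separate support. Without Rat3875 the count of called genes was 1272 and without Rat3867 it was 1357, fewer by over 1.5-fold. A rule named 192 genes, of which 145 stayed called under each of 18 alternatives and 0 changed direction. For the others described below, the alternatives that ended the call stand beside the gene.

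**Figure D1:**
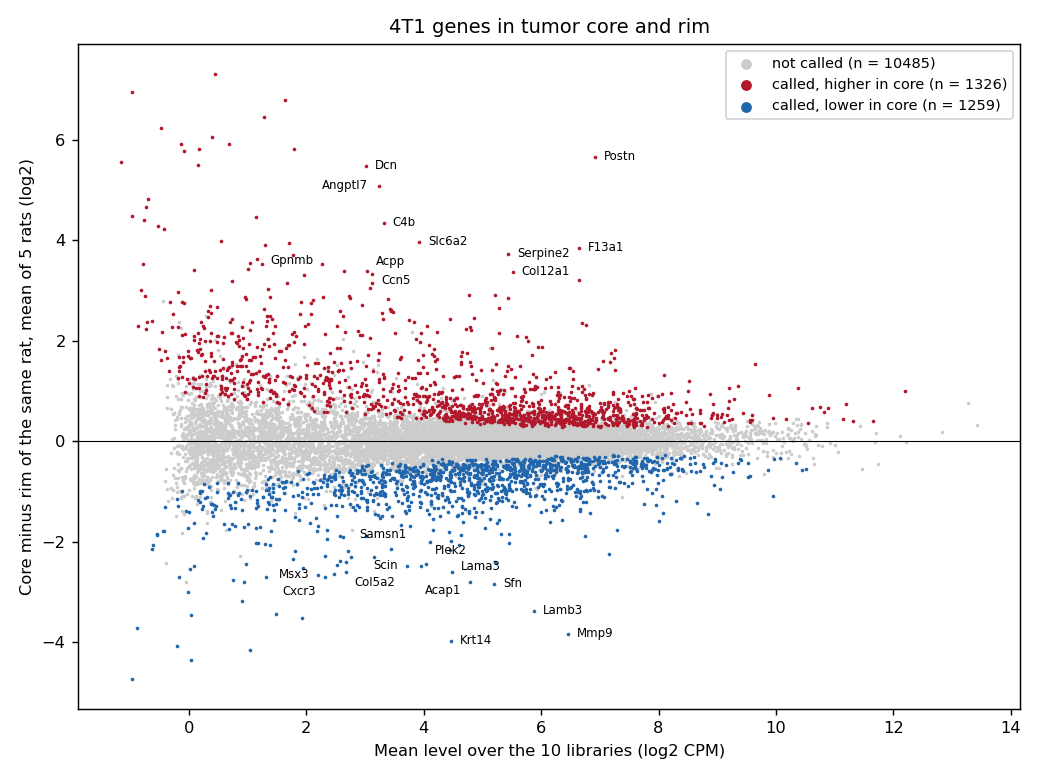
Each point is a mouse gene, with its mean level over the 10 libraries on the x axis (log2 CPM) and the core minus rim difference averaged over 5 rats on the y axis (log2). Red points are the 1326 genes called higher in the core and blue points the 1259 called lower. The labelled genes are 11 of the 12 largest rises and the 12 largest falls among called genes with a mean log2 CPM of 2 or more and the same sign in every rat.

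The largest rises among genes with a mean log2 CPM of 2 or more began with Postn, Dcn and Angptl7. Values are listed for Rat3867, Rat3869, Rat3875, Rat3876 and Rat3877 in this order throughout. Postn, the matrix protein periostin, stood at 931, 445, 649, 1002 and 1685 CPM in the cores and 19.4, 28.6, 25.5, 21.1 and 4.76 CPM in the rims (log2 difference 5.65 ± 0.53 SE, limma adjusted p = 0.000723). Each core was more than 10 times above each rim, and the rim of Rat3877 was the lowest library. F13a1, the transglutaminase chain of coagulation factor XIII, stood at 454, 138, 268, 574 and 818 CPM in the cores and 55.4, 54.6, 15.98, 25.8 and 10.6 CPM in the rims (log2 difference 3.84 ± 0.56 SE, limma adjusted p = 0.00355). The cores of Rat3877 and Rat3876 were highest, and all cores exceeded all rims. Serpine2, an inhibitor of thrombin and plasminogen activators, stood at 228, 115, 184, 77.7 and 259 CPM in the cores and 11.3, 8.61, 28.02, 2.52 and 34.6 CPM in the rims (log2 difference 3.73 ± 0.30 SE, limma adjusted p = 0.000506). Ccn5, a secreted protein of the Ccn family, stood at 40.8, 13.3, 23.7, 27.2 and 44.5 CPM in the cores and 2.97, 1.09, 3.26, 4.05 and 3.67 CPM in the rims (log2 difference 3.32 ± 0.20 SE, limma adjusted p = 0.000318). Its groups did not overlap, and the core and the rim of Rat3869 were the lowest of their groups. Dcn, the proteoglycan decorin, rose by 5.47 ± 0.55 SE, Angptl7, a secreted angiopoietin-like protein, by 5.07 ± 0.30 SE, the complement gene C4b by 4.34 ± 0.31 SE and the noradrenaline transporter Slc6a2 by 3.96 ± 0.40 SE. The lysosomal and melanosomal glycoprotein Gpnmb (3.52), the secreted phosphatase Acpp (3.38) and the fibril-associated collagen Col12a1 (3.37) complete the 11 described here of the 12 largest rises. In all 11 genes the 5 cores lay above the 5 rims. In the library of a pellet of cultured 4T1 cells the 11 genes stood at 0.034 (Dcn) to 4.21 CPM (Col12a1).

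Some of the low rim values could hold host reads. In normal rat mammary gland, which has no mouse cells, a small share of the reads of each rat gene was placed on its mouse counterpart. At that gland rate, misplaced rat reads would make up 65.1% of the rim reads of Postn, 72.2% of those of Col12a1, 26.4% of those of Dcn and 33.9% of those of Serpine2, and at most 3.15% of their core reads. For Gpnmb the figures were 183% of the rim reads and 45.3% of the core reads. The part of such reads in the rises was not tested. With genes left out whose gland signal exceeded 10% of their mean level, 2530 of 12634 genes were called.

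The 12 largest falls began with Krt14, Mmp9 and Lamb3. Krt14, the keratin of basal epithelium, stood at 2.92, 8.94, 4.02, 6.81 and 7.17 CPM in the cores and 131, 155, 107, 156 and 14.99 CPM in the rims (log2 difference -3.98 ± 0.53 SE, limma adjusted p = 0.00263). The rim of Rat3877 was far below the other rims but still above every core. Mmp9, the gelatinase that cuts type IV collagen, stood at 21.98, 24.4, 33.2, 31.98 and 11.5 CPM in the cores and 686, 642, 328, 264 and 106 CPM in the rims (log2 difference -3.85 ± 0.29 SE, limma adjusted p = 0.000408). The rims of Rat3867 and Rat3869 were highest and the rim of Rat3877 lowest. Sfn, the epithelial 14-3-3 sigma protein that holds cells in G2, stood at 16.5, 29.4, 10.3, 12.5 and 7.92 CPM in the cores and 110.1, 107, 109, 101 and 72.9 CPM in the rims (log2 difference -2.84 ± 0.20 SE, limma adjusted p = 0.000393). All rims lay above all cores, and the rim of Rat3877 was below the other rims. Acap1, a GTPase-activating protein of Arf6 in integrin recycling, stood at 15.1, 9.07, 7.395, 10.5 and 11.8 CPM in the cores and 105, 66.3, 84.4, 49.5 and 70.7 CPM in the rims (log2 difference -2.80 ± 0.17 SE, limma adjusted p = 0.000318). Plek2, a pleckstrin of lamellipodia, stood at 6.2001, 8.11, 6.42, 8.99 and 5.98 CPM in the cores and 48.3, 38.9, 26.98, 56.3 and 28.4 CPM in the rims (log2 difference -2.44 ± 0.16 SE, limma adjusted p = 0.000318). Samsn1, an adaptor protein with an SH3 domain, fell by 2.48 ± 0.23 SE, and the actin-severing protein scinderin, Scin, fell by 2.49 ± 0.31 SE. The laminin chains Lamb3 (-3.38) and Lama3 (-2.61), the chemokine receptor Cxcr3 (-2.71), the homeobox gene Msx3 (-2.66) and the collagen Col5a2 (-2.61) complete the 12. For Col5a2, misplaced rat reads at the gland rate would exceed its mouse reads in both regions (122% in the core and 123% in the rim), and the part of host reads in its fall was not tested. In 11 of these 12 genes the groups did not overlap. The exception was Lama3, whose rim of Rat3877 (9.904 CPM) lay within the range of the cores.

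**Figure D2:**
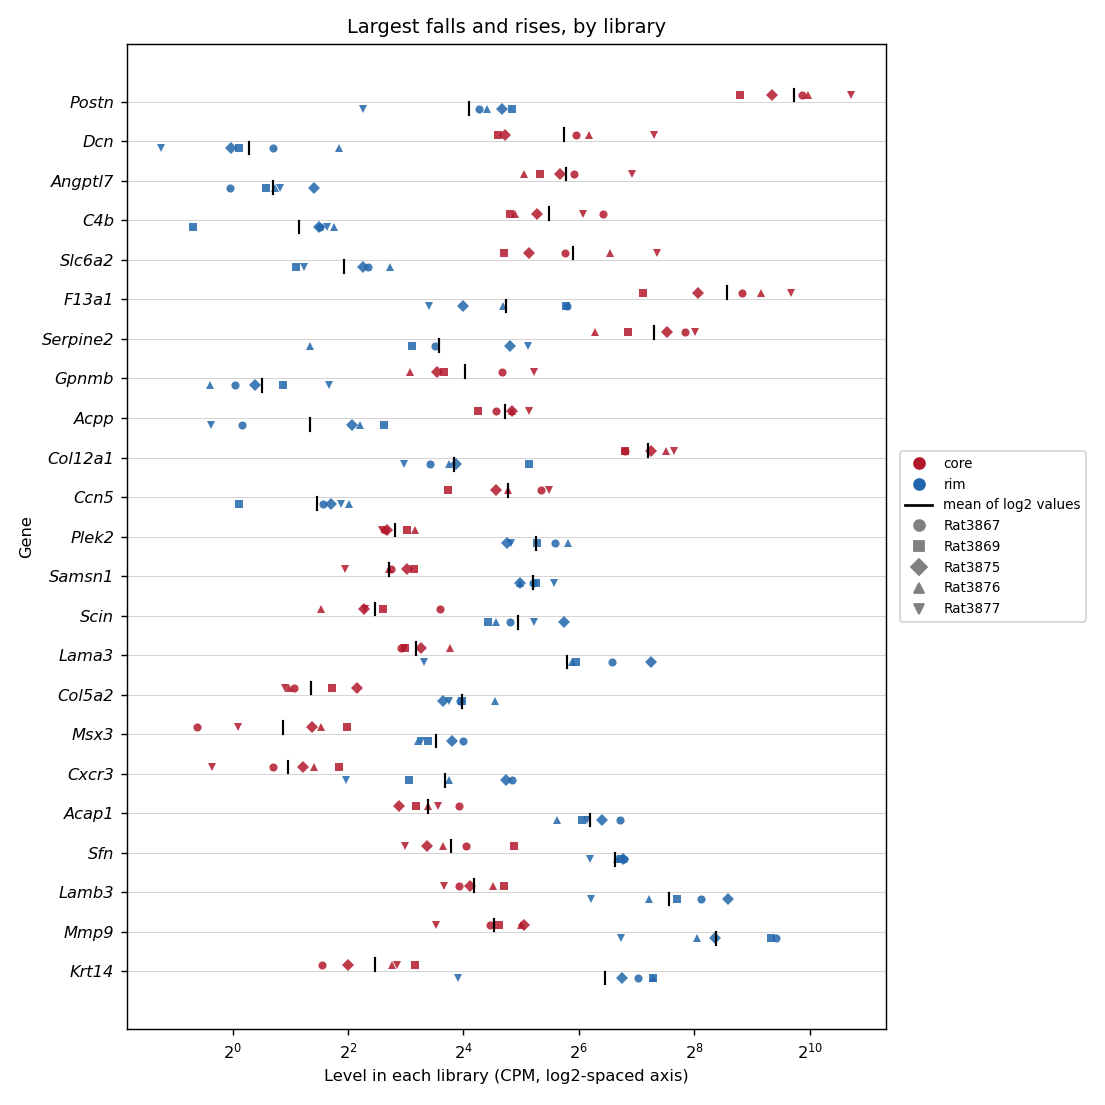
Levels of the 12 largest falls and of 11 of the 12 largest rises in each of the 10 libraries, in CPM on a log2-spaced x axis, with a row per gene. Cores are red, rims blue, symbols mark the rats, and black ticks mark the mean of the log2 values. Cores and rims are separated in every row except that of Lama3, and the rim of Rat3877 is the lowest rim for Krt14, Mmp9, Lamb3, Lama3 and Sfn.

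Genes of the fibrillar and interstitial matrix rose in the core more often than they fell. Of 21 tested, 10 rose and 3 fell, with a median log2 difference of 0.76 (0.38 to 1.92 in single rats). Ogn, the small proteoglycan osteoglycin, stood at 5.24, 10.1, 11.2, 9.64 and 13.8 CPM in the cores and 0.324, 1.22, 0.738, 1.105 and 0.324 CPM in the rims (log2 difference 3.90 ± 0.35 SE, limma adjusted p = 0.000668). With Postn, Dcn and Col12a1 it led the rises. The falls were the collagen chains Col5a2 and Col5a3 (-3.01, not called without Rat3876 or Rat3875, limma adjusted p up to 0.0957) and the lysyl oxidase relative Loxl3 (-0.96). The list of fibroblast and pericyte markers also had more rises than falls: 3 of 6 tested genes rose and 1 fell. Its 12 genes summed to 122 to 343 CPM in the cores and 85.8 to 239 CPM in the rims. Dpt, Rgs5, Col1a2, Thy1 and Cspg4 were under 1 CPM on average. The marker list shares Col1a1, Col1a2 and Col3a1 with the matrix list. The part of cells with these markers in the rise of the matrix genes was not tested.

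Basement membrane genes split by chain. Of 22 tested, 5 rose and 5 fell (median 0.06). Lamb3 and Lama3 fell, both chains of the laminin that anchors basal epithelium through hemidesmosomes. Lamb3 stood at 15.2, 26.1, 17.2, 22.9 and 12.7 CPM in the cores and 276, 208, 383, 149 and 74.4 CPM in the rims (log2 difference -3.38 ± 0.28 SE, limma adjusted p = 0.000555) and Lama3 fell by 2.61 ± 0.45 SE. For both chains the rim of Rat3875 was the highest and the rim of Rat3877 the lowest. Lama4, a laminin chain of vessel and mesenchymal basement membranes, went the other way, at 9.43, 2.89, 7.75, 6.96 and 11.9 CPM in the cores and 0.175, 0.0231, 0.357, 0.085 and 0.175 CPM in the rims (log2 difference 5.92 ± 0.39 SE, limma adjusted p = 0.000318). The rim values of Lama4 rest on a mean of 2.8000 mouse reads per library, and misplaced rat reads at the gland rate would come to 169.9% of them. With every rim under 1 CPM, Lama4 passed the filter only through its 5 cores, so its direction was set by the filter. Col4a6, a chain of the type IV collagen network, stood at 13.97, 8.72, 13.3, 8.397 and 14.4 CPM in the cores and 1.22, 3.44, 2.55, 1.27 and 0.823 CPM in the rims (log2 difference 2.82 ± 0.36 SE, limma adjusted p = 0.00252).

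**Figure D3:**
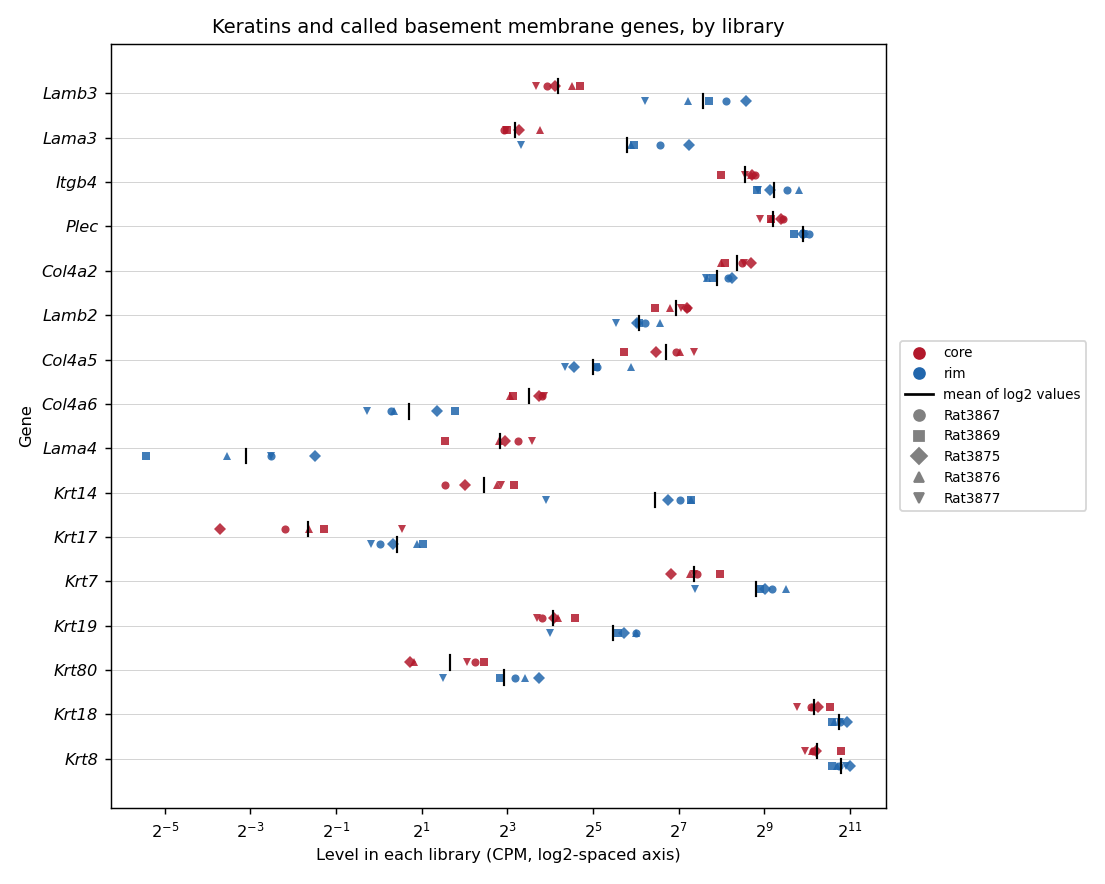
Levels in each of the 10 libraries, in CPM on a log2-spaced x axis, for 9 of the 10 called genes of the basement membrane list (upper rows) and the 7 keratins tested (lower rows). Cores are red, rims blue, symbols mark the rats, and black ticks mark the mean of the log2 values. The laminin chains Lamb3 and Lama3 lie to the right in the rims and Lama4 and Col4a6 in the cores, while the rim of Rat3877 sits next to the cores for Krt7 and Krt19.

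Integrins, the receptors for these matrix proteins, changed by chain as well: of 16, 3 rose and 4 fell. Itga2, a collagen receptor chain, stood at 60.3, 53.5, 109, 86.8 and 38.3 CPM in the cores and 345, 256, 349, 309.8 and 299.6 CPM in the rims (log2 difference -2.25 ± 0.18 SE, limma adjusted p = 0.000506). All rims were above all cores, by over 2-fold. Itga8, whose known ligands include nephronectin, stood at 26.5, 10.4, 29.7, 33.4 and 26.6 CPM in the cores and 3.17, 2.702, 5.31, 5.58 and 4.12 CPM in the rims (log2 difference 2.55 ± 0.18 SE, limma adjusted p = 0.000393), with the core of Rat3869 far below the other cores. Itgb8, which activates latent TGF-beta, rose by 3.31 ± 0.56 SE and the collagen receptor chain Itga10 by 2.15 ± 0.33 SE. In the rim of Rat3876, Itga10 stood at 14.2 CPM, well above the other rims.

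Matrix proteases and their inhibitors moved in both directions, 6 up and 6 down of 24. The proteases led the falls. Plau, the urokinase that activates plasminogen, stood at 45.7, 83.04, 50.1, 62.6 and 44.9 CPM in the cores and 245, 197, 353, 204 and 109 CPM in the rims (log2 difference -1.89 ± 0.23 SE, limma adjusted p = 0.00192). The sheddase Adam12 stood at 17.7, 10.4, 17.2, 9.68 and 11.6 CPM in the cores and 48.4, 53.5, 67.5, 47.5 and 28.8 CPM in the rims (log2 difference -1.88 ± 0.18 SE, limma adjusted p = 0.000723). Neither gene overlapped between groups. The protease inhibitor Serpine2 was the largest rise. Together with Mmp9, the falls in Plau and Adam12 were called under every alternative run.

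Of 7 keratins tested, 6 were lower in the core and 0 higher, with a median of -1.39. The part of the epithelial marker list, of which 6 of 10 genes were lower, in these falls was not tested. Over the 5 rats the median ran from -2.25 to -0.30, with Rat3877 nearest to 0. Krt7, of simple epithelium, stood at 171, 248, 112, 153 and 165 CPM in the cores and 583, 477, 515, 728 and 168 CPM in the rims (log2 difference -1.44 ± 0.30 SE, limma adjusted p = 0.0124; not called without Rat3875, limma adjusted p up to 0.0507). Among rims, Rat3877 had the least, and it lay among the cores, as it did for Krt19, at 14.02, 23.9, 16.97, 18.01 and 12.99 CPM in the cores and 64.1, 47.7, 52.9, 64.1 and 15.9 CPM in the rims (log2 difference -1.39 ± 0.25 SE, limma adjusted p = 0.00714). The luminal keratin Krt18 changed less (-0.58 ± 0.14 SE; not called without Rat3876, Rat3875, Rat3867 or the pair Rat3876 and Rat3877, limma adjusted p up to 0.101). Across alternatives, 2 to 8 keratins were called lower.

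Of 25 junction genes, 6 fell and 1 rose. Epcam, an adhesion molecule of carcinoma cells, stood at 168, 217, 210.5, 258 and 189.9 CPM in the cores and 752, 535, 459.7, 556 and 235 CPM in the rims (log2 difference -1.20 ± 0.21 SE, limma adjusted p = 0.00723). The desmosomal plakophilin Pkp2 (-0.71) also fell, and the tight junction protein Ocln rose (0.58; not called without Rat3875 or Rat3867, limma adjusted p up to 0.0643). Regulators of epithelial and mesenchymal states did not share a direction. Of 13, 3 rose and 2 fell. Twist1, a mesenchymal transcription factor, stood at 167, 127, 191, 106 and 179 CPM in the cores and 43.3, 58.7, 50.9, 54.4 and 88.4 CPM in the rims (log2 difference 1.39 ± 0.17 SE, limma adjusted p = 0.00199). The mesenchymal factor Zeb2 also rose (0.59; not called without Rat3876, Rat3875 or Rat3867, limma adjusted p up to 0.11). The epithelial factor Grhl2 fell (-0.85; not called without Rat3875, limma adjusted p up to 0.0547), and so did the mesenchymal gene Prrx1 at low levels (-1.15; not called without Rat3876, Rat3875, Rat3869, Rat3867 or the pair Rat3876 and Rat3877 or by DESeq2, adjusted p up to 0.133).

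Several complement and iron genes rose. In the complement and coagulation list, 6 of 12 rose and 2 fell, with the largest median of the 43 lists (1.57, 0.69 to 2.53 in single rats). The proteases of the first complement component were raised together. C1s1 stood at 15.8, 5.29, 8.01, 4.68 and 5.27 CPM in the cores and 0.0249, 0.208, 0.262, 0.198 and 0.125 CPM in the rims (log2 difference 5.77 ± 0.66 SE, limma adjusted p = 0.00151). C1ra stood at 12.3, 7.42, 13.1, 8.94 and 8.397 CPM in the cores and 0.723, 3.07, 1.12, 0.935 and 2.67 CPM in the rims (log2 difference 2.76 ± 0.41 SE, limma adjusted p = 0.00377). The rim values of C1s1 rest on a mean of 2.8000 reads per library. All were under 1 CPM, so C1s1 passed the filter only through its 5 cores and its direction was set by the filter. C4b stood at 85.4, 28.1, 38.5, 29.6 and 67.01 CPM in the cores and 2.87, 0.623, 2.83, 3.37 and 3.12 CPM in the rims (log2 difference 4.34 ± 0.31 SE, limma adjusted p = 0.000393), and since it has a near-identical neighbor its level is uncertain. The genes that fell were the anticoagulant protein S, Pros1 (-0.99), and the thrombin receptor F2r (-0.59).

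Of 22 NF-kappaB and STAT3 targets, 6 rose and 0 fell. Lbp, which presents bacterial lipopolysaccharide, stood at 55.1, 9.51, 20.9, 39.1 and 86.8 CPM in the cores and 0.773, 0.115, 0.786, 0.425 and 0.0748 CPM in the rims (log2 difference 6.79 ± 0.64 SE, limma adjusted p = 0.000723). Its rims held a mean of 8.2000 mouse reads, and misplaced rat reads at the gland rate would come to 188% of them. Lcn2, the siderophore-binding lipocalin, stood at 499.8, 212, 168, 300.2 and 488 CPM in the cores and 80.1, 103, 15.98, 39.5 and 7.46 CPM in the rims (log2 difference 3.21 ± 0.55 SE, limma adjusted p = 0.00646). Ptgs2, the inducible cyclooxygenase, stood at 358, 198, 263, 150.3 and 339 CPM in the cores and 45.7, 71.1, 102, 124 and 100.2 CPM in the rims (log2 difference 1.57 ± 0.30 SE, limma adjusted p = 0.00952), and the transcription factor Cebpd rose by 2.05 ± 0.37 SE. For all 4 genes the cores lay above the rims, and in Rat3876 the gap for Ptgs2 was narrow. Every rim of Lbp was under 1 CPM, so Lbp passed the filter only through its 5 cores. That its cores exceed its rims therefore follows from the filter. Regulators of the pathway such as the inhibitor genes Nfkbia and Tnfaip3 were not called (0.37 and -0.56, chosen after their values were seen). Of 18 chemokines and cytokines, 5 rose and 0 fell. Csf1, the growth factor of macrophages, stood at 275, 329, 194, 246 and 256 CPM in the cores and 91.8, 138, 102, 167 and 159 CPM in the rims (log2 difference 1.00 ± 0.15 SE, limma adjusted p = 0.00374). Il11 (2.18), the neutrophil attractant Cxcl5 (1.97) and the monocyte attractant Ccl2 (3.55) rose too. Misplaced rat reads at the gland rate would be 183% of the rim reads of Ccl2 and 25.4% of its core reads.

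Many iron genes rose in the core: 8 of 17 were higher and 1 lower. Trf, which encodes the iron carrier transferrin, stood at 91.3, 12.8, 29.2, 10.6 and 31.7 CPM in the cores and 0.424, 1.09, 1.02, 0.198 and 0.225 CPM in the rims (log2 difference 5.81 ± 0.54 SE, limma adjusted p = 0.000723). Its rims held a mean of 11.8 mouse reads. The control glands, which have no mouse cells, gave 54 and 27 reads on mouse Trf. No rate of misplaced reads was available for Trf, and the part of host reads in its levels was not tested. Hmox1, which releases iron from heme, stood at 58.1, 49.01, 36.8, 15.98 and 41.04 CPM in the cores and 5.81, 8.66, 8.69, 7.34 and 7.61 CPM in the rims (log2 difference 2.29 ± 0.27 SE, limma adjusted p = 0.00162). The ferritin chain Ftl1 stood at 697, 767, 651, 424 and 676 CPM in the cores and 357, 399, 378, 354 and 403 CPM in the rims (log2 difference 0.74 ± 0.12 SE, limma adjusted p = 0.00463). Cp, the ferroxidase ceruloplasmin, stood at 1561, 815, 1325, 1506 and 1821 CPM in the cores and 572, 733, 291, 625 and 305 CPM in the rims (log2 difference 1.53 ± 0.30 SE, limma adjusted p = 0.0097). In each of these genes every core exceeded every rim, and the core of Rat3876 was the lowest core for Trf, Hmox1 and Ftl1. Tfrc, the receptor that takes up transferrin, moved the other way (-0.39; not called without Rat3877, Rat3876, Rat3875, Rat3867 or the pair Rat3876 and Rat3877, without the pairing by rat or with chromosome medians removed, limma adjusted p up to 0.121).

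Many vascular growth factors rose: 8 of 20 were higher and 1 lower. Angptl7 stood at 60.5, 40.1, 50.8, 32.97 and 122 CPM in the cores and 0.973, 1.501, 2.64, 1.67 and 1.77 CPM in the rims (log2 difference 5.07 ± 0.30 SE, limma adjusted p = 0.000318). It lies inside Mtor on the opposite strand, and how strand was handled in the counting is not recorded in the labels. Angpt1, the ligand that stabilizes vessels through Tie2, stood at 37.2, 41.4, 61.03, 75.7 and 84.4 CPM in the cores and 7.36, 15.1, 15.4, 9.94 and 15.9 CPM in the rims (log2 difference 2.22 ± 0.19 SE, limma adjusted p = 0.000668). The lymphatic growth factor Vegfc stood at 40.1, 22.6, 23.8, 31.7 and 50.9 CPM in the cores and 6.66, 9.49, 5.88, 3.48 and 7.41 CPM in the rims (log2 difference 2.36 ± 0.26 SE, limma adjusted p = 0.00126). Adm, the vasodilator adrenomedullin, rose by 1.13 ± 0.19 SE. Pdgfb, a growth factor that recruits pericytes, fell (-0.68; not called without Rat3876, Rat3875, Rat3869 or Rat3867 or without the pairing by rat, limma adjusted p up to 0.106). Of 12 secreted Wnt genes, 3 rose and 0 fell. The Wnt amplifier Rspo3 rose by 3.18 ± 0.53 SE, the ligand Wnt10a by 2.12 ± 0.39 SE and the inhibitor Sfrp1 by 1.91 ± 0.21 SE. For Sfrp1, misplaced rat reads at the gland rate would be 81.5% of the rim reads and 0.67% of the core reads.

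Of 20 genes of the TGF-beta, activin and BMP pathways, 4 rose and 4 fell. The inhibitors of differentiation Id1 and Id2, both BMP targets, went apart: Id1 stood at 15.2, 16.9, 9.85, 19.7 and 15.02 CPM in the cores and 40.98, 34.6, 19.8, 27.96 and 20.4 CPM in the rims (log2 difference -0.88 ± 0.16 SE, limma adjusted p = 0.00825). Id2 stood at 24.2, 25.2, 30.1, 26.4 and 26.4 CPM in the cores and 4.46, 9.58, 14.3, 16.8 and 7.36 CPM in the rims (log2 difference 1.48 ± 0.24 SE, limma adjusted p = 0.00503). Bmp1, the procollagen protease, fell by 0.71 ± 0.10 SE and the TGF-beta-induced matrix gene Tgfbi fell by 1.13 ± 0.19 SE. In the Notch list, 5 of 13 fell and 2 rose. The ligand Jag1 stood at 49.5, 48.4, 51.6, 57.1 and 47.7 CPM in the cores and 147, 126, 91.5, 145 and 112 CPM in the rims (log2 difference -1.27 ± 0.12 SE, limma adjusted p = 0.000698), and Nrarp, a Notch target that limits the pathway, fell by 1.67 ± 0.18 SE. The target Hey1 (2.74) and the receptor Notch4 (1.48; not called without the pair Rat3876 and Rat3877, limma adjusted p up to 0.0698) rose at low levels, and for Hey1 misplaced rat reads would be 101% of the rim reads. Of 17 Yap and Tead targets, 5 rose and 0 fell. Ccn1 stood at 431, 394, 233, 178 and 188 CPM in the cores and 51.4, 153, 92.2, 79.5 and 77.6 CPM in the rims (log2 difference 1.64 ± 0.25 SE, limma adjusted p = 0.00433), Ccn2 rose by 1.81 ± 0.40 SE and Crim1 by 1.38 ± 0.16 SE.

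**Figure D4:**
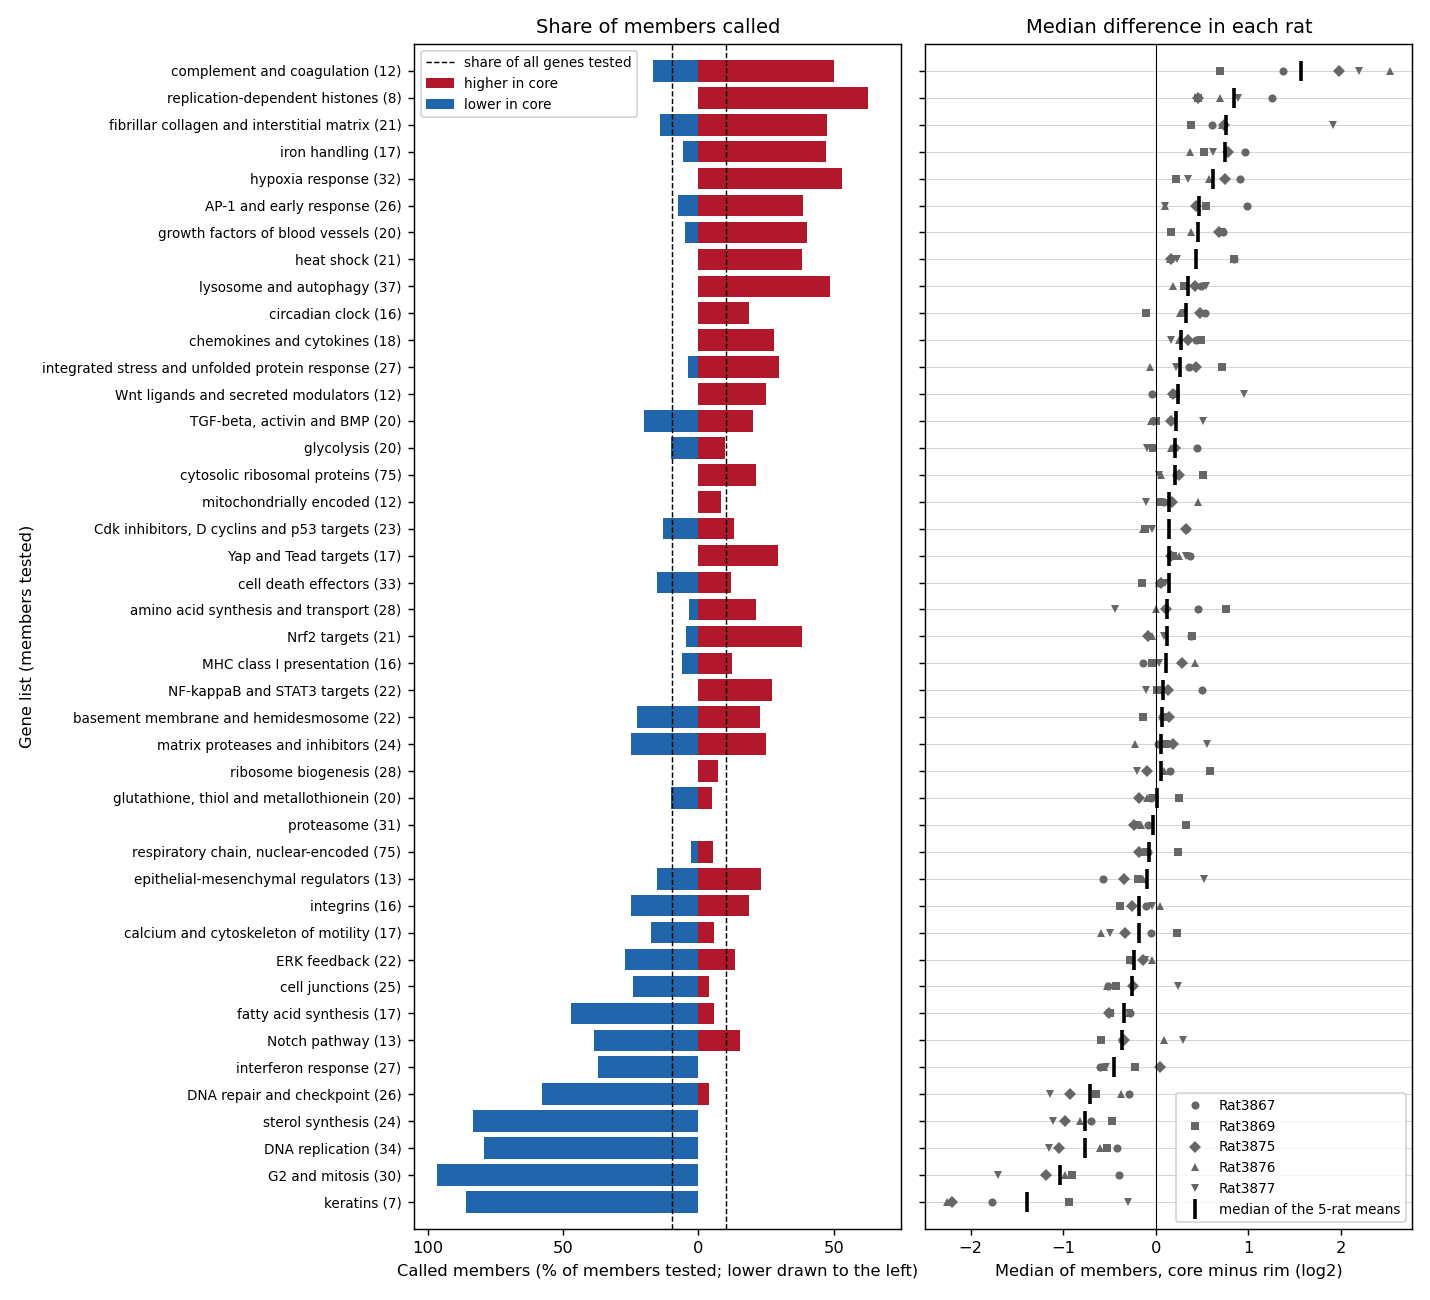
For each of 43 gene lists, with the number of members tested in brackets, the left panel gives the percent of members called higher (red, right of 0) and lower (blue, left of 0) in the core. Dashed lines mark the shares over all genes tested, 10.1% and 9.63%. The right panel gives the median log2 difference of the members in each rat (symbols) and of the means of 5 rats (black ticks). Keratins, mitosis, replication, sterol synthesis, fatty acid synthesis, DNA repair and ERK feedback lie below 0 in all rats.

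Most genes of dividing cells fell in the core. Of 30 G2 and mitosis genes, 29 fell and 0 rose (median -1.04, -1.70 to -0.40 in single rats). The proliferation marker Mki67 stood at 181, 109.9, 190.1, 199.96 and 96.8 CPM in the cores and 389.7, 385, 602, 399.8 and 488 CPM in the rims (log2 difference -1.58 ± 0.18 SE, limma adjusted p = 0.00157). The cores of Rat3877 and Rat3869 had the least. Cenpe (-1.39), a kinesin of the kinetochore, and Plk1 (-1.33), a mitotic kinase, fell with non-overlapping groups. Of 34 replication genes, 27 fell and 0 rose (median -0.76). Rrm2, the regulated subunit of ribonucleotide reductase, stood at 50.3, 35.6, 38.7, 56.003 and 28.4 CPM in the cores and 103, 98.3, 167, 147 and 119.9 CPM in the rims (log2 difference -1.62 ± 0.16 SE, limma adjusted p = 0.000925). Tyms, which makes thymidylate, fell by 1.22 ± 0.17 SE, and Uhrf1, which carries DNA methylation through replication, fell by 1.10 ± 0.12 SE. The DNA repair list moved with them, 15 of 26 lower and 1 higher. In the Fanconi pathway, which repairs crosslinks, Fanca fell by 1.30 ± 0.20 SE and Fanci fell by 1.27 ± 0.17 SE, and in recombination Brca1 fell by 0.99 ± 0.18 SE. The higher gene was Atrip (0.49; not called without Rat3876, Rat3875, Rat3867 or the pair Rat3876 and Rat3877 or with chromosome medians removed, limma adjusted p up to 0.133), a partner of the Atr kinase.

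Polyadenylated transcripts of replication-dependent histones did not follow. Of 8 tested, 5 rose and 0 fell. The linker histone H1f2 stood at 89.8, 50.3, 126, 55.6 and 131 CPM in the cores and 18.8, 40.2, 40.3, 19.3 and 39.99 CPM in the rims (log2 difference 1.49 ± 0.23 SE, limma adjusted p = 0.0044), and H2bc4 rose by 0.87 ± 0.16 SE. These messages normally end in a stem-loop without a polyA tail, and the libraries were polyA-selected, so the values cover their polyadenylated form. Among 23 Cdk inhibitors, D cyclins and p53 targets, 3 rose and 3 fell. The Cdk inhibitor Cdkn1a stood at 7.55, 7.897, 8.47, 3.24 and 4.802 CPM in the cores and 15.1, 14.2, 15.5, 13.4 and 13.7 CPM in the rims (log2 difference -1.26 ± 0.20 SE, limma adjusted p = 0.00523) and was lower in all cores than in all rims. Ccnd2 stood at 73.1, 115, 92.3, 105 and 104 CPM in the cores and 41.4, 58.95, 27.5, 51.2 and 62.6 CPM in the rims (log2 difference 1.06 ± 0.15 SE, limma adjusted p = 0.00306), while its relative Ccnd1 fell (-0.57; not called without Rat3876, Rat3875, Rat3867 or the pair Rat3876 and Rat3877, limma adjusted p up to 0.103). The shares of both directions in this list are near those of all genes. Cell death effectors went both ways, 4 up and 5 down of 33. Casp4, the sensor of intracellular lipopolysaccharide, rose by 1.18 ± 0.20 SE and the death receptor Fas by 1.45 ± 0.22 SE.

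Many hypoxia genes rose: 17 of 32 were higher and 0 lower, with a median of 0.62 (0.22 to 0.91 in single rats). P4ha1, a prolyl hydroxylase of collagen, stood at 503, 339, 410.5, 373 and 463 CPM in the cores and 186, 179.7, 190.2, 249 and 281 CPM in the rims (log2 difference 0.95 ± 0.13 SE, limma adjusted p = 0.00273). Higd1a, a mitochondrial protein induced by low oxygen, stood at 94.7, 87.2, 117, 70.9 and 72.8 CPM in the cores and 26.6, 43.99, 50.6, 43.8 and 42.7 CPM in the rims (log2 difference 1.10 ± 0.16 SE, limma adjusted p = 0.00371). All cores exceeded all rims for both. Jmjd6, a hydroxylase of lysine residues, rose by 0.79 ± 0.11 SE. Ndrg1, a HIF-induced gene, stood at 1059, 556, 1572, 1004 and 864 CPM in the cores and 325, 549.8, 611, 300.4 and 541 CPM in the rims (log2 difference 1.10 ± 0.24 SE, limma adjusted p = 0.015; not called without Rat3875 or Rat3867, limma adjusted p up to 0.0599). Glycolysis genes were largely not called: of 20 table entries, in which Aldoa appears under a pair of identifiers, 2 rose and 2 fell, close to the shares over all genes. The fallen genes were Aldoc (-0.84) and the lactate carrier Slc16a1 (-0.37; not called without Rat3877, Rat3876, Rat3875, Rat3867 or the pair Rat3876 and Rat3877, limma adjusted p up to 0.147).

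Most respiratory chain genes were not called. Of 75 nuclear-encoded genes, 4 rose and 2 fell. The rises include Atp5l on chromosome 9 (0.53; not called without Rat3867 or with chromosome medians removed, limma adjusted p up to 0.0961). Also among them are Ndufb11 (0.67) and Ndufa1 (0.74; not called without Rat3867, limma adjusted p up to 0.0517), in the first 60 Mb of X. On chromosome 9, 1 of 5 list members tested was higher. Over all genes tested, 28.1% on chromosome 9 and 43 of 114 in the first 60 Mb of X were higher, a bound chosen after values were seen. Of 12 mitochondrially encoded genes, mt-Nd1 rose (0.40; not called without Rat3876, Rat3875, Rat3867 or the pair Rat3876 and Rat3877, limma adjusted p up to 0.118). Of 75 ribosomal protein genes, 16 rose and 0 fell (median 0.20). On chromosome 9, 5 of the 6 list members tested rose. Rpl39, on X, stood at 774, 1121, 783, 767 and 787 CPM in the cores and 438, 460.1, 495, 489 and 466 CPM in the rims (log2 difference 0.84 ± 0.11 SE, limma adjusted p = 0.00279), with the core of Rat3869 above the other cores. Rps25 rose by 0.55 ± 0.11 SE (not called with chromosome medians removed, limma adjusted p up to 0.072) and Rplp1 by 0.58 ± 0.12 SE (not called without Rat3875 or Rat3867 or with chromosome medians removed, limma adjusted p up to 0.0871). These genes have many processed pseudogenes, so reads may be shared, and across alternatives 3 to 23 of the list were called. Of 28 ribosome biogenesis genes, Gnl3 (0.72) and Nle1 (0.48; not called without Rat3876, Rat3875, Rat3867 or the pair Rat3876 and Rat3877 or without the pairing by rat, limma adjusted p up to 0.0645) rose, and none of 31 proteasome genes was called (0 by limma, 0 to 1 higher and 0 to 5 lower across the alternatives).

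Genes of lipid synthesis fell more often than they rose. In the sterol pathway, which turns acetyl-CoA into cholesterol, 20 of 24 genes fell and 0 rose (median -0.76, -1.11 to -0.47 in single rats). Acat2, at the entry of the pathway, stood at 22.9, 28.7, 25.8, 25.98 and 22.1 CPM in the cores and 47.3, 65.1, 70.5, 56.1 and 55.3 CPM in the rims (log2 difference -1.22 ± 0.10 SE, limma adjusted p = 0.000648). Its groups did not overlap. Of 17 fatty acid genes, 8 fell and 1 rose. The desaturase Fads2 stood at 47.98, 37.5, 41.6, 56.7 and 40.7 CPM in the cores and 98.8, 88.9, 106, 118 and 87.9 CPM in the rims (log2 difference -1.16 ± 0.09 SE, limma adjusted p = 0.000506), Elovl6 fell by 1.16 ± 0.14 SE and Acly, which makes cytosolic acetyl-CoA, fell by 0.52 ± 0.08 SE. The elongase Elovl5, on chromosome 9, rose by 0.60 ± 0.09 SE. Amino acid genes had 6 rises and 1 fall among 28. The rises were led by transporters: Slc3a2 stood at 247, 263, 235, 238 and 293 CPM in the cores and 145, 163, 132, 119 and 158 CPM in the rims (log2 difference 0.84 ± 0.08 SE, limma adjusted p = 0.000924), its light-chain partner Slc7a5 rose by 0.90 ± 0.14 SE and the glycine transporter Slc6a9 by 1.35 ± 0.20 SE. Cth, which makes cysteine from cystathionine, fell by 1.23 ± 0.18 SE.

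Stress programs rose in part. Of 27 members of the combined integrated stress and unfolded protein list, 8 rose and 1 fell. Ppp1r15a, which reverses the translation block, stood at 44.9, 43.4, 38.8, 14.5 and 33.4 CPM in the cores and 8.51, 9.17, 10.7, 9.21 and 13.1 CPM in the rims (log2 difference 1.70 ± 0.24 SE, limma adjusted p = 0.00326). Ddit3, the transcription factor Chop, stood at 47.9, 55.4, 60.8, 25.2 and 51.5 CPM in the cores and 7.56, 15.4, 9.79, 11.2 and 36.3 CPM in the rims (log2 difference 1.76 ± 0.30 SE, limma adjusted p = 0.00622). The core of Rat3876 was the lowest core for both, and the rim of Rat3877 was high for Ddit3. Cebpb rose by 1.44 ± 0.17 SE and Atf5 by 1.46 ± 0.23 SE. Edem1, of endoplasmic reticulum degradation, fell (-0.37; not called without Rat3876, Rat3875 or the pair Rat3876 and Rat3877, limma adjusted p up to 0.134). Of 21 heat shock genes, 8 rose and 0 fell. Hspb1, a small chaperone, stood at 62.7, 91.04, 6.01, 6.81 and 36.2 CPM in the cores and 1.72, 3.76, 5.02, 1.73 and 3.87 CPM in the rims (log2 difference 3.05 ± 0.62 SE, limma adjusted p = 0.0117). The cores ranged over more than 10-fold, with those of Rat3875 and Rat3876 near the rims. Hspa1b ranged nearly as widely, at 835, 385, 110.3, 65.7 and 297 CPM in the cores and 25.8, 56.1, 52.2, 25.7 and 105 CPM in the rims (log2 difference 2.35 ± 0.50 SE, limma adjusted p = 0.0139), and has a near-identical copy. Cryab rose by 1.09 ± 0.23 SE (not called without Rat3867 or the pair Rat3876 and Rat3877, limma adjusted p up to 0.0518).

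Of 21 Nrf2 targets, 8 rose and 1 fell. Gsta4, a glutathione transferase for lipid aldehydes, stood at 43.7, 55.2, 53.4, 42.4 and 43.03 CPM in the cores and 16.8, 22.4, 20.8, 13.9 and 11.8 CPM in the rims (log2 difference 1.504 ± 0.12 SE, limma adjusted p = 0.000506), and Gclc, which starts glutathione synthesis, rose by 0.93 ± 0.14 SE. Osgin1 fell (-0.83; not called without Rat3867 or the pair Rat3876 and Rat3877, limma adjusted p up to 0.064). In the list of glutathione, thiol and metallothionein genes, 1 of 20 rose and 2 fell, below the share over all genes. The rise was Sod3, the extracellular superoxide dismutase, at 32.01, 10.03, 18.04, 16.4 and 62.99 CPM in the cores and 0.175, 0.0693, 0.881, 0.198 and 0.574 CPM in the rims (log2 difference 6.44 ± 0.42 SE, limma adjusted p = 0.000318), with a mean of 7.2000 reads per rim. Sod3 too was under 1 CPM in every rim and passed the filter only through its 5 cores, which set its direction. Slc39a10, a zinc importer, fell, at 20.96, 16.9, 16.5, 29.5 and 27.2 CPM in the cores and 79.3, 76.6, 133, 62.9 and 103 CPM in the rims (log2 difference -2.02 ± 0.23 SE, limma adjusted p = 0.00138), and so did Txnip, the glucose-induced inhibitor of thioredoxin (-1.85 ± 0.37 SE). Many lysosomal genes rose, 18 of 37 with 0 lower. Hexa, a subunit of beta-hexosaminidase, stood at 33.4, 24.8, 25.4, 28.01 and 42.6 CPM in the cores and 11.3, 12.3, 12.3, 5.64 and 18.5 CPM in the rims (log2 difference 1.43 ± 0.20 SE, limma adjusted p = 0.00301). The membrane protein Lamp2 stood at 348, 242, 268, 341 and 374 CPM in the cores and 164, 143, 165, 189.6 and 158 CPM in the rims (log2 difference 0.93 ± 0.10 SE, limma adjusted p = 0.00138). The sialidase Neu1 rose by 0.82 ± 0.12 SE.

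Early response and signaling genes moved both ways. Of 26 AP-1 and early response genes, 10 rose and 2 fell. Klf9, a target of glucocorticoid and stress signals, stood at 148, 83.5, 139, 69.03 and 136 CPM in the cores and 28.4, 32.1, 44.6, 11.02 and 28.2 CPM in the rims (log2 difference 2.06 ± 0.18 SE, limma adjusted p = 0.000668), and Maff, a small Maf factor, rose by 1.28 ± 0.17 SE. Fosl2 (0.84) and Nr4a1 (0.88) rose with groups that did not overlap, and Egr2 (-1.04; not called without Rat3877, Rat3876, Rat3869, Rat3867 or the pair Rat3876 and Rat3877, limma adjusted p up to 0.123) and Klf10 (-0.60; not called without Rat3877, Rat3876, Rat3875, Rat3867 or the pair Rat3876 and Rat3877, limma adjusted p up to 0.236) fell. Among 22 genes of ERK feedback, 6 fell and 3 rose. Tgfa, a ligand of the Egf receptor, stood at 92.5, 70.8, 114, 124 and 68.9 CPM in the cores and 253, 125, 275, 191 and 183 CPM in the rims (log2 difference -1.11 ± 0.14 SE, limma adjusted p = 0.00205), and the ERK phosphatase Dusp6 fell by 0.56 ± 0.09 SE and the inhibitor Spry4 fell by 0.71 ± 0.13 SE. Dusp1, a phosphatase of the stress kinases, rose by 2.42 ± 0.35 SE and the Egf receptor inhibitor Errfi1 by 0.41 ± 0.10 SE (not called without Rat3876, Rat3875 or Rat3867, limma adjusted p up to 0.0854). Of 16 clock genes 3 rose and 0 fell, a called share near that of all genes, and Nfil3 was among the rises (0.86; not called without Rat3875, limma adjusted p up to 0.0643). Of 17 motility genes, 1 rose and 3 fell: Tpm1, on chromosome 9, rose (0.56; not called with chromosome medians removed, limma adjusted p up to 0.0513), and Cnn2 (-0.61; not called without Rat3867 or the pair Rat3876 and Rat3877, limma adjusted p up to 0.089) and Tpm4 (-0.35; not called without Rat3877, Rat3876, Rat3875, Rat3869, Rat3867 or the pair Rat3876 and Rat3877, limma adjusted p up to 0.221) fell. Acta2 also fell, at a mean of 0.969 CPM in the cores and 3.34 in the rims, where misplaced rat reads would exceed its mouse reads (107% and 128%).

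Of 27 interferon response genes, 10 fell and 0 rose, and 3 fell without Rat3876 and Rat3877 together. The list's median was -0.61 to 0.04 in single rats and was above 0 in Rat3875. Ifitm3, which blocks virus entry, stood at 196, 170.1, 166, 194 and 193 CPM in the cores and 332, 246, 224, 344 and 207 CPM in the rims (log2 difference -0.53 ± 0.12 SE, limma adjusted p = 0.0157; not called without Rat3876 or Rat3867, limma adjusted p up to 0.0649). The double-stranded RNA sensors Ifih1 (-0.77; not called without Rat3875 or Rat3867, limma adjusted p up to 0.0693) and Ddx58 (-0.51; not called without the pair Rat3876 and Rat3877 or without the pairing by rat, limma adjusted p up to 0.0786) fell, as did Cmpk2 at low levels (-1.65; not called without the pair Rat3876 and Rat3877, limma adjusted p up to 0.0657). Of 16 MHC class I genes, 2 rose and 1 fell, a called share near that of all genes. Nlrc5, the transactivator of class I genes, stood at 121, 102, 122, 114 and 113 CPM in the cores and 74.6, 79.1, 74.8, 58.9 and 89.3 CPM in the rims (log2 difference 0.61 ± 0.11 SE, limma adjusted p = 0.00772). B2m rose (0.44; not called without Rat3876, Rat3875, Rat3869 or Rat3867, limma adjusted p up to 0.124) and the immunoproteasome subunit Psmb10 fell (-0.58; not called without Rat3875, Rat3869 or Rat3867, limma adjusted p up to 0.0809).

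Some of the most read transcripts also differed by at least 2-fold. Neat1, a nuclear long noncoding RNA that builds paraspeckles, stood at 2905, 1045, 2103, 1611 and 2563 CPM in the cores and 798, 914, 1148, 736 and 1124 CPM in the rims (log2 difference 1.05 ± 0.20 SE, limma adjusted p = 0.00969; not called without the pair Rat3876 and Rat3877, limma adjusted p up to 0.0516). Nt5e, the ecto-enzyme CD73 that makes adenosine, stood at 1046, 503, 753, 848 and 1268 CPM in the cores and 411, 421, 380.1, 464 and 362 CPM in the rims (log2 difference 1.05 ± 0.19 SE, limma adjusted p = 0.00774). Asap1, an Arf GTPase-activating protein, stood at 582, 487, 589, 499.9 and 658 CPM in the cores and 225, 312, 300.2, 154 and 259 CPM in the rims (log2 difference 1.21 ± 0.15 SE, limma adjusted p = 0.00198). For both genes every core lay above every rim. The imprinted noncoding RNA H19 stood at 155, 248, 400.04, 577 and 184 CPM in the cores and 701, 1029.6, 245, 1776 and 789.6 CPM in the rims (log2 difference -1.45 ± 0.38 SE, limma adjusted p = 0.0294; not called without Rat3877, Rat3876, Rat3869, Rat3867 or the pair Rat3876 and Rat3877, limma adjusted p up to 0.144). Its levels varied widely within both regions, and the core of Rat3875 lay above its rim. Top2a, the topoisomerase of dividing cells, fell by 1.23 ± 0.17 SE. Among the genes of smallest p was Rbp2. Rbp2, a retinol-binding protein, stood at 30.1, 27.2, 26.5, 27.4 and 32.3 CPM in the cores and 7.06, 9.12, 7.45, 10.4 and 10.5 CPM in the rims (log2 difference 1.70 ± 0.14 SE, limma adjusted p = 0.000538). Lrrn4cl, a membrane protein, stood at 41.1, 50.01, 53.3, 37.3 and 44.1 CPM in the cores and 11.3, 15.1, 14.6, 15.6 and 13.4 CPM in the rims (log2 difference 1.69 ± 0.13 SE, limma adjusted p = 0.000408). The kinase Camk1d rose by 2.40 ± 0.19 SE and the sodium channel Scn8a fell by 1.55 ± 0.12 SE.

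A larger share of genes was called higher on chromosome 9 than on any other chromosome. This pattern was looked for after values were seen, so it is described without a test. Of 745 chromosome 9 genes tested, 209 were called higher and 34 lower, that is 28.1% higher, beside 5.98 to 16.5% on each of the 19 other chromosomes and 9.04% over all of them. Chromosome 9 held 5.71% of the genes tested and 15.8% of the genes called higher. Its median log2 difference was 0.23 (1.18-fold) with 73.3% of genes above 0, against medians of -0.07 to 0.08 and 41.3 to 57.6% on the others. In each rat the median of chromosome 9 was 0.18 to 0.28. The shift was small per gene: the called-higher genes of chromosome 9 had a median rise of 0.59 and 20.6% of them reached 2-fold, against 0.79 and 38.5% elsewhere.

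Relative to the mean of the rims, over genes of at least 5 mean CPM, chromosome 9 stood at 0.26, 0.22, 0.25, 0.24 and 0.23 in the cores and at -0.06, 0.07, 0.06, -0.03 and -0.05 in the rims. No core overlapped a rim, and the cores differed by little. Lack of overlap was not particular to chromosome 9. On chromosome 13 all cores lay below all rims, at -0.113 to -0.0227 in the cores and -0.02 to 0.0229 in the rims. Along the chromosome, 9 of 13 windows of 10 Mb were above 0 in all 5 rats, beside 19 of 202 windows elsewhere. A further 28 of those 202 windows were below 0 in all 5 rats. The windows at 0 to 20 Mb and 30 to 40 Mb were below 0 on average, and the highest window, at 90 to 100 Mb, had a median of 0.42. That window holds Rbp2 (chromosome 9, 98486115 to 98509781, GRCm38). Of the 192 named genes, which were chosen among called genes, 108 rose. On chromosome 9 lie 20 of the 192, and 19 of these 20 rose. They include Trf (103204001 to 103230444), Acpp (104288251 to 104337748), Col12a1 (79598991 to 79718831), Nt5e (88327197 to 88372092), Gsta4 (78182774 to 78209349) and Hexa (59539540 to 59565109). The exception was Col5a3 (20770050 to 20815067). With the median of its chromosome subtracted from each gene in each library, 2637 genes were called and 183 of the 192 named genes remained called. Without chromosome 9, 2313 of 12325 genes were called.

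The first 60 Mb of X had 43 of 114 genes higher, 1 lower and a median of 0.44. The bound of 60 Mb was chosen after the windows were seen, so these counts describe the region and do not test it. Relative to the rims, this region stood at 0.28 to 0.59 in the cores and -0.12 to 0.19 in the rims. The rest of X, with 243 genes, had 16 higher and 25 lower and a median of -0.09. There the rim of Rat3877 stood at -0.53 and the other rims at -0.01 to 0.19. Chromosome 16 set the rim of Rat3876 apart in the same way, at 0.47 beside -0.13 to -0.10 in the other rims, and its genes had a core minus rim median of -0.42 in that rat against 0.10 to 0.18 in the others. The named genes on chromosome 16 are Samsn1, Pkp2, Pros1, Cebpd and Tfrc, and of these Tfrc alone was not called without Rat3876.

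**Figure D5:**
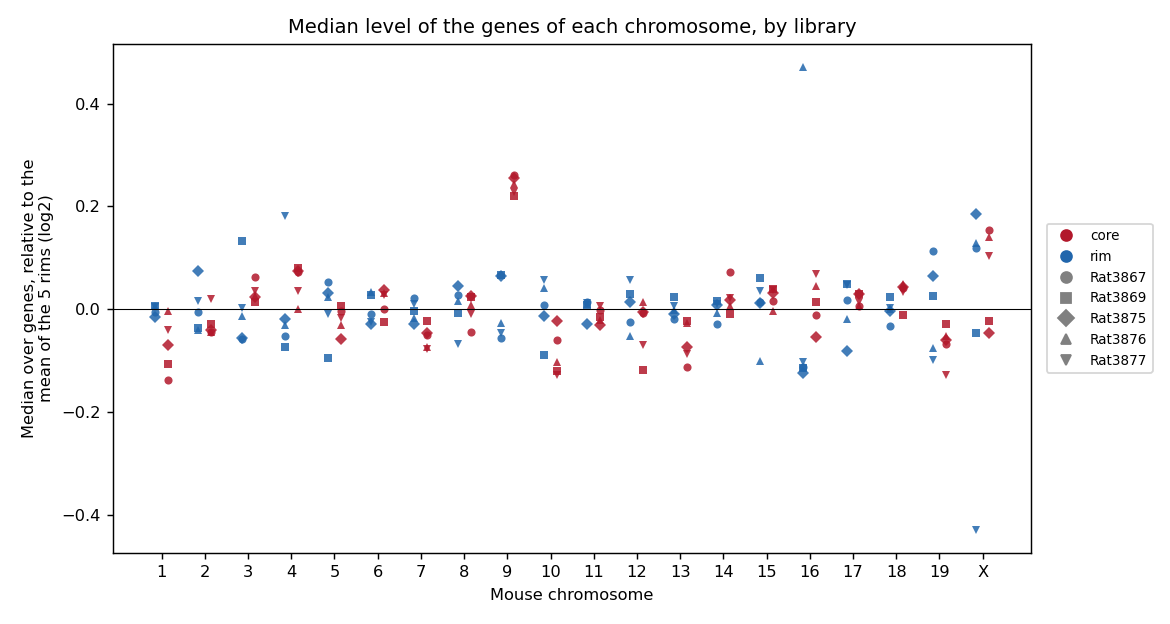
Median log2 level of the genes of each mouse chromosome in each library, relative to the mean of the 5 rims, over genes of at least 5 mean CPM. Cores are red, rims blue, and symbols mark the rats. On chromosome 9 the 5 cores lie between 0.22 and 0.26 and the 5 rims between -0.06 and 0.07. The rim of Rat3876 stands out on chromosome 16 and the rim of Rat3877 on X.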

How the data were processed

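RNA of tumor cores and rims was sequenced after polyA selection, and the series also holds lung and normal mammary gland samples and a pellet of cultured 4T1 cells. Per the submitters' processing notes, Trim Galore, STAR, featureCounts and limma were used with the builds GRCm38 and Rnor_6.0, but neither their versions nor the strand setting of counting is given there or in the labels. The authors deposited voom-scale CPM per gene, a normalized read signal in which each value is the sum of a whole read number and 0.5, multiplied by a constant of the library (all values whole within 0.01 read), and gene counts for control samples mapped to the other species' genome were also deposited by the authors. The deposited table names tumor regions "in" and "out" with the rat number, read here as core and rim, and 0 sample columns were not mapped.

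From these, log2 of the deposited CPM was fitted with limma 3.58.1 (trend) in R 4.3.3 with the rat as block, no value was added, and genes with an adjusted p (Benjamini-Hochberg) under 0.05 were called. Genes needed 1 CPM in at least 5 of 10 libraries. Core and rim of a number come from the same animal by the labels, and the deviations from the group means correlated at -0.18 to 0.24 within rats and at -0.28 to 0.30 between rats, with 2 of 5 cores closest to their own rim. The fit was tested on simulated data. Misplaced reads per gene were estimated from the counts of the control gland, whose columns carry other numbers than the sample titles and were used as a group, and edgeR 4.0.16 and DESeq2 1.42.0 were run on recovered reads as alternatives. Host species tables were used for depth and for these rates, and promoter sequences were not used here. Read numbers stand beside some of the lowest values. Without them above are Hey1, Ogn and Rspo3, whose rims held a mean of 8.6, 14.4 and 14.6 mouse reads.

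The genes and lists were chosen with earlier results of these data known. Named were the 12 largest rises and falls among called genes with a mean log2 CPM of 2 or more and the same sign in 5 rats, up to 4 called genes of smallest p alike in 5 rats per list with any called against the majority, the 10 most abundant called genes of at least 2-fold, the 5 of smallest p and summed cell type markers, 192 genes in all. Not all are described, and some are not reported here. Of these, 76 overlap a gene on the opposite strand and 40 a gene on the same strand in GENCODE M21, so their reads may be shared.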

Additional observations from a re-analysis of the deposited data

Results flagged for a closer look

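Within each group of 5 libraries, the lowest or highest library stood far from the rest, by Dixon's ratio above 0.71, in 27 of 406 tests of the named genes reported here and chromosome medians. Chance flags about 1 in 20 groups, or 20.3 of 406, so the number is near what chance gives. Of these, 7 were in the rim of Rat3877 and 5 in the core of Rat3876.

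In the rim of Rat3877, Krt14 stood at 14.99 CPM against 107 to 156 in the other rims, Krt19 at 15.9 against 47.7 to 64.1 and Krt7 at 168 against 477 to 728. Sfn stood at 72.9 CPM against 101 to 110.1 and Postn at 4.76 against 19.4 to 28.6, while Elovl5 was high at 76.5 against 63.7 to 66.9. The median log2 level of chromosome 4 genes was 0.18 there, relative to the mean of the rims.

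In the core of Rat3876, 5 genes were low. Ddit3 stood at 25.2 CPM against 47.9 to 60.8 in the other cores, Ppp1r15a at 14.5 against 33.4 to 44.9 and Maff at 69.0 against 110.3 to 130. Jmjd6 stood at 93.1 CPM against 120.3 to 133 and Ftl1 at 424 against 651 to 767. In the rim of the same rat, Slc7a5 stood at 87.3 CPM against 134 to 149.5, Itga10 at 14.2 against 3.87 to 5.31, and the chromosome 16 median at 0.47.

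In the core of Rat3869, Itga8 stood at 10.4 CPM against 26.5 to 33.4, Fanci at 2.24 against 3.86 to 4.66, Rpl39 at 1121 against 767 to 787, and the chromosome 18 median at -0.01. In the rim of that rat, Ccn5 stood at 1.09 CPM against 2.97 to 4.05, C4b at 0.623 against 2.83 to 3.37 and Fanci at 6.997 against 8.93 to 9.60. In the core of Rat3877, Rrm1 stood at 61.9 CPM against 78.5 to 83.7 and the chromosome 2 median at 0.02. In the rim of Rat3867, Higd1a stood at 26.6 CPM against 42.7 to 50.6 and Gsdme at 13.3 against 18.3 to 20.6. The chromosome 11 median was -0.03 in the rim of Rat3875.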

How the results depend on the processing

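Leaving out each rat in turn gave 1272 (without Rat3875) to 2397 called genes, 633 (without Rat3867) to 1243 higher and 620 (without Rat3875) to 1187 lower, and without Rat3867 the total was 1357. Fewer samples enter these fits. Without the pairing by rat as a block, 2630 genes were called, 1343 higher and 1287 lower, and 5 of the 192 named genes were not called. With no filter 2886 genes were called, with a mean of at least 5 CPM 2191, and on recovered reads edgeR called 2536 and DESeq2 3036. Total-count scaling gave 1139 higher and 1515 lower genes, so that 42.9% of calls were higher, against 51.3%. Chosen after seeing the data, removing chromosome medians gave 2637 called genes. No called gene among the 192 named reversed under any of 18 alternatives, 145 stayed called under all of them, and 47 were not called under at least 1. Depth limits genes near 1 CPM, for which a library of this size holds few reads.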

Other observations

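The lung and cultured-cell libraries of the same table were not part of the comparison of core with rim, and their chromosome medians are given as values. The regions were chosen after their values were seen. Relative to the mean of the rims, over genes of at least 5 mean CPM, chromosome 9 stood at 0.38 in the lung of Rat3789, at 0.10, 0.11, 0.12 and 0.17 in the lungs of Rat3869, Rat3875, Rat3876 and Rat3877 and at 0.12 in the pellet of cultured cells. Those lung values lie between the cores and the rims in 4 rats and above the cores in Rat3789. The first 60 Mb of X stood at 0.33 to 0.50 in the lungs, within the range of the cores (0.28 to 0.59), and at 0.73 in the pellet. On chromosome 16, lungs stood at -0.11 to 0.07 and the pellet at 0.05, so the rim of Rat3876 at 0.47 was above all other libraries, and its windows of 10 Mb were at 0.40 to 0.51.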
